A study of Mus musculus with 16 samples.

Results

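Bhlhe40, Bhlhe41, Prdm1, Id2, Id3 and Zeb2, 6 of the 56748 genes in the deposited tables, were followed across the 16 RNA-Seq samples of splenic memory CD4+ T cells, in which the genes HP1α (Cbx5) or HP1γ (Cbx3) had been deleted or left intact. The 6 genes were chosen by symbol, with their counts, their TPM (a level scaled to transcript length and library size) and their differences between the groups already known. Their differences between groups are therefore given as a description, with standard errors and 95% intervals, and calls are counted without being read as a result.

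The cells were FACS-sorted as CD4+CD25low/-CD62L-CD44high, and each of HP1α KO, HP1α WT, HP1γ KO and HP1γ WT was represented by 4 samples. All mice were sex-matched littermates of 6 to 12 weeks on a mixed 129/Sv and C57BL/6 background. HP1α KO mice were homozygous for an allele excised in the germline by CMV-cre and were compared with +/+ littermates. HP1γ WT and HP1γ KO mice both carried Hp1g flox/flox, and the KO carried Cd4-cre, which is active in all cells of the T lineage from the thymus on, so an effect of Cre cannot be told apart from one of the deletion. The mouse line also cannot be told apart from litter, allele history and the day and hour of sorting, which the labels do not give. Samples within a group are replicates by label, and nothing states that each came from a separate mouse, so that p-values measure the spread between these samples.

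The 6 genes encode transcriptional regulators that steer effector and memory T cells. Bhlhe40 and Bhlhe41 are basic helix-loop-helix repressors that bind E-boxes, are induced by T cell receptor signalling and also act as repressors within the circadian clock. Bhlhe40 is known in helper T cells for sustaining inflammatory cytokines and restraining IL-10. Prdm1 encodes Blimp-1, a zinc finger repressor of terminal effector cells and plasma cells that opposes Bcl6 and favours IL-10. Id2 and Id3 lack a DNA-binding domain and hold E proteins away from DNA, Id2 mostly in effector cells and Id3 mostly in naive, memory and follicular cells. Zeb2 encodes a zinc finger repressor that binds E-boxes and acts with T-bet in terminally differentiated effector cells.

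On GRCm39, Bhlhe40 lies on the plus strand at chr6:108636626-108644502 and Bhlhe41 on the minus strand at chr6:145803969-145811430. Prdm1 (chr10:44313171-44404497), Id2 (chr12:25143798-25147282) and Zeb2 (chr2:44873644-45007464) are on the minus strand, and Id3 (chr4:135870808-135873066) is on the plus strand. Cbx3, the HP1γ gene, also lies on chromosome 6, 57.2 Mb from Bhlhe40 and 94.3 Mb from Bhlhe41.

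Of the 6 genes, 5 matched an entry of the RefSeq promoter table, which is on GRCm38.p6. Bhlhe40 had no entry under its symbol. The 250 bases before the start of Bhlhe41 and Prdm1, whose levels differed between the lines, are shown beside those of Id2, which held neither of the E-boxes searched and whose levels did not separate the lines. These windows were picked with both traits known, so nothing is read from which of them held an E-box. Capitals mark CACGTG, the E-box that Bhlhe40, Bhlhe41 and the clock activators bind, and CAGGTG, searched on both strands, the E-box of ZEB factors and E proteins. The windows are chr6:145865421-145865670, chr10:44458749-44458998 and chr12:25096093-25096342, all on the minus strand.
Bhlhe41: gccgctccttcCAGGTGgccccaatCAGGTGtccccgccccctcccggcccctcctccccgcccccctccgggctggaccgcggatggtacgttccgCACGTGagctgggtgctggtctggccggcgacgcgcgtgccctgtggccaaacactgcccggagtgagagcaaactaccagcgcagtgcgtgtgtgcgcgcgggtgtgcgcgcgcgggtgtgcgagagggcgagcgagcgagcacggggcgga
Prdm1: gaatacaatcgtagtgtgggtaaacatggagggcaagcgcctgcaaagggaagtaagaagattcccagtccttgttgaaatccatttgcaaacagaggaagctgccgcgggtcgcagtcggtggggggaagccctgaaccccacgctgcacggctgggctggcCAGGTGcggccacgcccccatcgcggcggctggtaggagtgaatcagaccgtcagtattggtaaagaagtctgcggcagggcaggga
Id2: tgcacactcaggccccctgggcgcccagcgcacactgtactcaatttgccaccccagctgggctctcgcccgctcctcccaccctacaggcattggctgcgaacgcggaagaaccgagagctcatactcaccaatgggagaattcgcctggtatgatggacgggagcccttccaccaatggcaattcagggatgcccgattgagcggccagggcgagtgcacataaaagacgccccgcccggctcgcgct

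The Bhlhe41 window held 1 CACGTG, 153 bases before the start, and 2 matches of CAGGTG. The Prdm1 window held 1 CAGGTG and no CACGTG, while the windows of Id2, Id3 and the 4 entries of Zeb2 held neither. Among 32851 promoter windows of the same length, 6.02% held CACGTG and 17.2% held CAGGTG on either strand. These matches describe the letters of the windows and say nothing about binding in these cells.

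The sorted cells carried the markers of their label. The summed level of Cd3e, Cd3d, Cd4, Cd44, Cd5 and Trac lay between 3314 and 3734 CPM (counts scaled to library size, normalised by TMM) in all 16 samples. Within it, HP1α KO (3539 to 3642 CPM) lay above HP1α WT (3397 to 3469 CPM; exact permutation test, p = 0.0286). Cd44, a marker of the sort, was higher in the HP1γ line in both line comparisons (log2 difference 0.35, edgeR adjusted p = 0.0104, in WT and 0.32, edgeR adjusted p = 0.00416, in KO cells), as Bhlhe40 was, and its part in the differences below was not tested. Libraries summed to between 26694045 and 40199637 estimated counts. Cbx5 was lower in every HP1α KO sample than in every HP1α WT sample (log2 fold change −0.58, SE 0.145, edgeR quasi-likelihood test, adjusted p = 0.946). Its level in HP1α KO (23.05 to 29.03 CPM) was not below that of the HP1γ line (20.1 to 29.8 CPM in HP1γ KO, 27.1 to 37.4 CPM in HP1γ WT), in which Cbx5 was intact, so that the gene's total count checks the label only within the line. Cbx3 was lower in every HP1γ KO sample than in every HP1γ WT sample (log2 fold change −0.82, SE 0.0790, edgeR adjusted p = 0.00150). In bulk RNA, fewer cells of a kind and less RNA per cell cannot be told apart.

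Per unit of transcript length, the 6 genes kept a single order in these memory cells. TPM fell from Bhlhe40 through Id2, Id3, Prdm1 and Zeb2 to Bhlhe41 in 16 of 16 samples, and the 4 samples of neighbouring genes in this order did not overlap within any of the 4 groups. Bhlhe40 ranged from 458 to 1099 TPM, between rank 145 and rank 303 of all genes. Id2 ranged from 247 to 414 TPM, and its rank lay between 332 and 549. Id3, the other inhibitor of E proteins, was listed at 17.2 to 28.6 TPM, and the ratio of Id2 to Id3 in a sample lay between 8.63 and 18.9. Prdm1 was listed at 8.64 to 16.2 TPM and Zeb2 at 2.42 to 9.90 TPM. Bhlhe41 never exceeded 2.15 TPM, and the Bhlhe40 transcript was 496 to 3958 times as abundant per length in the same sample.

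**Figure D1:**
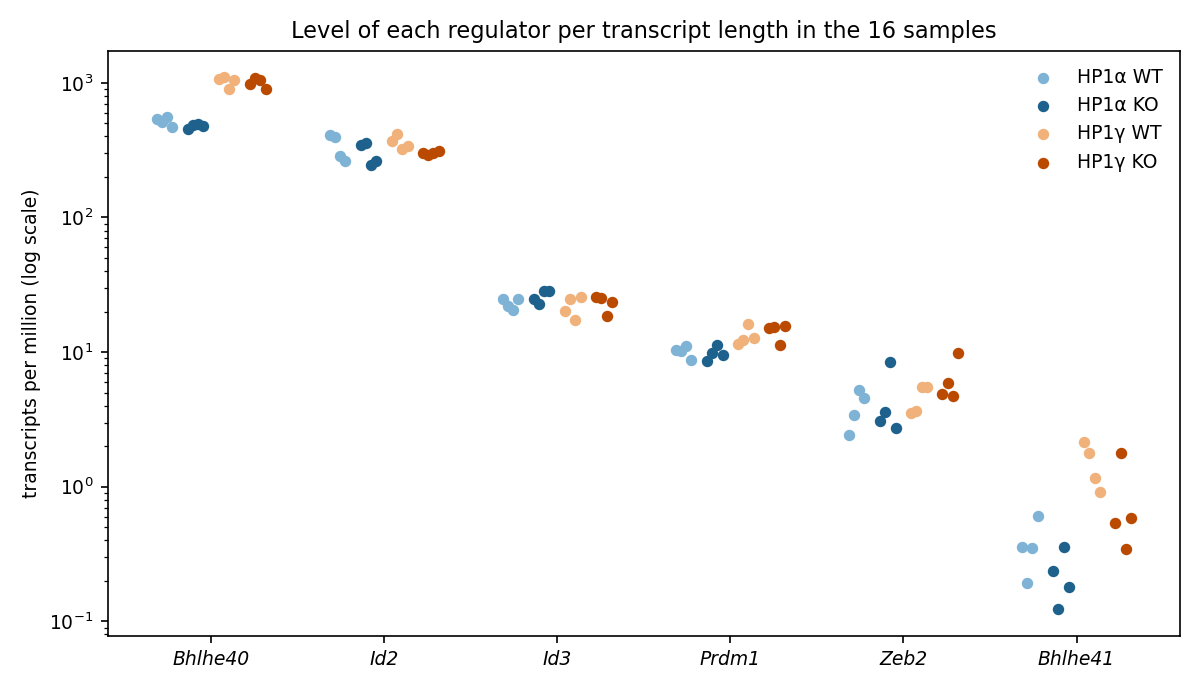
TPM of each of the 6 regulators on a log axis, 1 point per sample and 4 points per group, coloured by group. Bhlhe40 (458 to 1099 TPM) and Id2 (247 to 414 TPM) sit far above Bhlhe41, which lies between 0.123 and 2.15 TPM.

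TPM divide a count by the effective length that Salmon assigned to the gene in that sample, and this length was not stable for every gene. The count divided by the TPM, scaled by depth, varied 1.06-fold over the 16 samples for Bhlhe40 and 1.04-fold for Id2, against a median of 1.15-fold over genes with at least 50 counts in every sample. It varied 3.62-fold for Bhlhe41, more than for 99.9% of genes, and 1.89-fold for Zeb2, more than for 97.0% of genes. For these reasons, groups are compared below on the count scale, as CPM.

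Bhlhe40 showed the clearest pattern of the 6 genes. In HP1α WT it was at 945, 866, 1045 and 830 CPM (replicates 1 to 4), and in HP1α KO at 798, 857, 942 and 838 CPM. In HP1γ WT it was at 2025, 2000, 1539 and 1847 CPM, and in HP1γ KO at 1739, 1862, 1798 and 1529 CPM. All 8 samples of the HP1γ line lay above all 8 samples of the HP1α line, whereas KO and WT samples overlapped within either line. Groups did not overlap for 19.5% of all genes between the WT groups and for 32.3% between the KO groups, and with the gene chosen on these values nothing is read from the separation.

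The log2 fold change of Bhlhe40 was −0.10 (SE 0.0783, 95% interval −0.28 to 0.07) in HP1α KO against HP1α WT. It was −0.09 (SE 0.0942, interval −0.30 to 0.12) in HP1γ KO against HP1γ WT. The difference of the knockout effects was 0.00 (SE 0.131, interval −0.28 to 0.27). Between the lines, Bhlhe40 was 1.01 higher on the log2 scale in HP1γ WT than in HP1α WT (SE 0.103, 2.01-fold) and 1.01 higher in HP1γ KO than in HP1α KO (SE 0.0760, 2.02-fold). The estimated line difference of Bhlhe40 was thus of one size in WT and KO cells, and the intervals of both knockout effects did not reach that size. With the gene chosen on these contrasts, this describes these samples only.

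Bhlhe41, the paralogue of Bhlhe40, was close to the lower end of what these libraries resolve. It was at 1.03, 0.731, 1.43 and 0.663 CPM in HP1α WT and at 0.626, 0.477, 1.47 and 0.696 CPM in HP1α KO. It was at 5.54, 4.64, 2.43 and 1.95 CPM in HP1γ WT and at 2.05, 2.79, 1.31 and 1.34 CPM in HP1γ KO. These levels rest on 15 to 182 reads per sample. The 4 HP1γ WT samples lay above all HP1α WT samples, but HP1γ KO and HP1α KO overlapped through HP1α KO replicate 3, and HP1γ KO overlapped HP1γ WT.

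Bhlhe41 was 1.92 higher on the log2 scale in HP1γ WT than in HP1α WT (SE 0.381) and 1.19 higher in HP1γ KO than in HP1α KO (SE 0.395). Without HP1α KO replicate 3 the latter difference was 1.62. In HP1γ KO against HP1γ WT its log2 fold change was −0.95 (SE 0.376, interval −1.79 to −0.12), and in HP1α KO against HP1α WT it was −0.23 (SE 0.397, interval −1.11 to 0.65; −0.67 without HP1α KO replicate 3). The difference of the knockout effects was 0.73 with an interval from −0.48 to 1.95.

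Prdm1 (Blimp-1) followed the line rather than the genotype at a smaller scale. It was at 21.6, 24.01, 24.1 and 19.0 CPM in HP1α WT, at 18.4, 20.9, 24.9 and 19.3 CPM in HP1α KO, at 30.2, 29.0, 35.2 and 29.3 CPM in HP1γ WT and at 33.6, 32.9, 25.7 and 32.2 CPM in HP1γ KO. The CPM of the lines did not overlap, but HP1γ KO replicate 3 at 25.7 CPM lay close to HP1α KO replicate 3 at 24.9 CPM, and in TPM these samples changed places (11.31 and 11.34). Prdm1 was 0.48 higher on the log2 scale in HP1γ WT than in HP1α WT (SE 0.0996, 1.40-fold) and 0.57 higher in HP1γ KO than in HP1α KO (SE 0.115, 1.49-fold). Its log2 fold change was −0.09 (SE 0.111) in HP1α KO and 0.01 (SE 0.104) in HP1γ KO, each against its WT littermates.

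Id2 had lower values in HP1γ KO than in HP1γ WT but did not pass the test there, by edgeR or under any of 15 alternatives. It was at 284, 306, 221 and 242 CPM in HP1γ WT and at 211, 198, 210 and 212 CPM in HP1γ KO, and the groups did not overlap. The log2 fold change was −0.33 (SE 0.0956, interval −0.55 to −0.12), and HP1γ KO samples were far closer to each other (SD 6.49 CPM) than HP1γ WT samples (SD 39.0 CPM). In this comparison 7.1% of all genes tested had groups that did not overlap. In the HP1α line, Id2 was at 288, 273, 214 and 189 CPM in WT and at 245, 250, 186 and 183 CPM in KO (log2 fold change −0.16, SE 0.151). In both HP1α groups, replicates 1 and 2 lay above replicates 3 and 4. The line difference of Id2 was 0.13 (SE 0.140) between the WT groups and −0.06 (SE 0.105) between the KO groups on the log2 scale.

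Id3 was at 10.9 to 20.2 CPM over the 16 samples, and its groups overlapped in all 4 comparisons. Its log2 differences ranged from −0.23 (HP1γ KO minus HP1α KO, SE 0.126) to 0.18 (HP1α KO minus HP1α WT, SE 0.115).

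Zeb2 was at 5.93 to 18.5 CPM, and its groups also overlapped in all 4 comparisons. The log2 difference was 0.51 (SE 0.258, interval −0.06 to 1.08) for HP1γ KO minus HP1α KO, 0.32 (SE 0.204) for HP1γ KO minus HP1γ WT, 0.25 (SE 0.164) for HP1γ WT minus HP1α WT and 0.04 (SE 0.229) for HP1α KO minus HP1α WT. The highest Zeb2 level, 18.5 CPM, was in HP1γ KO replicate 4, and without that sample the HP1γ KO difference was 0.11 and the difference between the KO groups 0.30. HP1γ KO replicate 4 also had the highest summed level of the dendritic cell markers Zbtb46, Flt3, Xcr1, Siglech and Itgax, 150 CPM against at most 75.5 CPM in the 4 HP1γ WT samples. The highest Zeb2 level of the HP1α line, 13.4 CPM in HP1α KO replicate 3, was in the sample with the highest summed level of 6 myeloid markers (127 CPM). Over the 16 samples within their groups, Zeb2 had r = 0.26 with the dendritic cell list (permutation p = 0.391, adjusted 0.809; rho = 0.26, permutation p = 0.382, adjusted 0.814; r = 0.13 without the 2 farthest samples) and r = 0.44 with the myeloid list (permutation p = 0.145, adjusted 0.579; rho = 0.43, permutation p = 0.155, adjusted 0.669; r = 0.19 without them). These relations are from a family of 60.

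**Figure D2:**
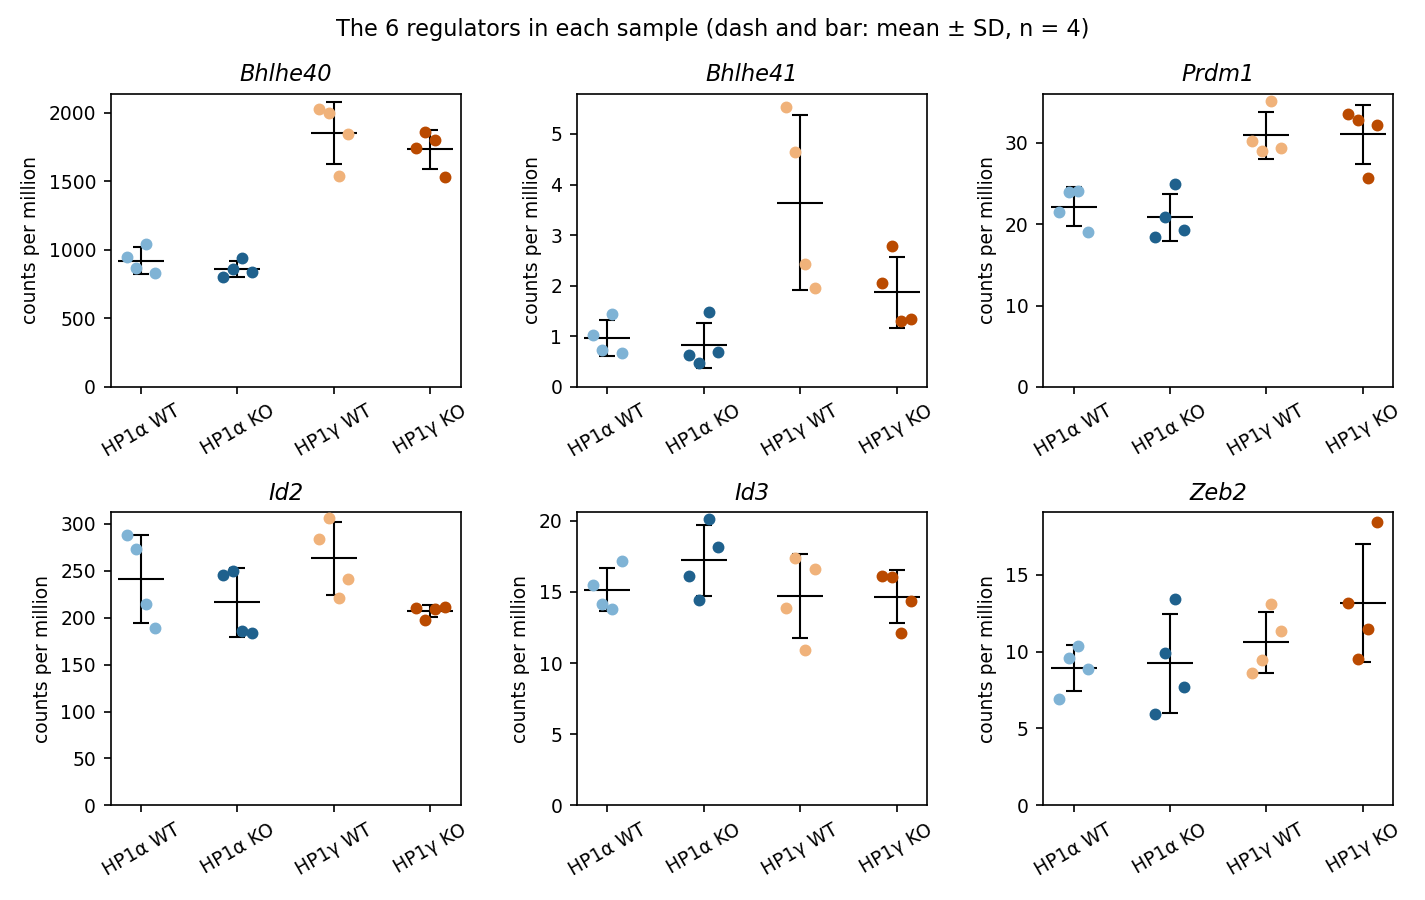
Level of each regulator in CPM, 1 point per sample, with the group mean as a dash and the SD as a bar (n = 4); each vertical axis starts at 0. Bhlhe40 lies between 798 and 1045 CPM in the HP1α line and between 1529 and 2025 CPM in the HP1γ line, while Id3 and Zeb2 overlap in all comparisons.

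Counted over the 6 genes, all of which passed the filter on low counts in each comparison, none reached an adjusted p under 0.05 (edgeR) in HP1α KO against HP1α WT, where 0.0% of all genes did (0 of 14881 by edgeR, with 635 at an unadjusted p under 0.05, and 8 by DESeq2). None reached it in HP1γ KO against HP1γ WT, where 0.327% of all genes did. At an unadjusted p under 0.05 the counts were 0 of 6 and 2 of 6, where 4.27% and 11.9% of all genes lay, and DESeq2 called 0 of 6 in each. In the comparison of the WT groups 3 of the 6 genes reached it, against 12.8% of 14804 genes, and in the comparison of the KO groups 3 of the 6, against 32.8% of 15020 genes. In both cases these were Bhlhe40, Bhlhe41 and Prdm1, all higher in the HP1γ line, where 8.25% and 16.8% of all genes were called in that direction. For the difference of the knockout effects it was 0 of 6 by edgeR, at an unadjusted p under 0.05 and by DESeq2, against 0.0507% of genes by edgeR. Since the 6 genes were chosen with these contrasts known, nothing is read from these shares. The call of Bhlhe41 between the KO groups was lost without any one of 5 samples (HP1α KO replicates 1, 2 and 4, HP1γ KO replicates 1 and 2), and that of Prdm1 between the WT groups without HP1α WT replicate 1. Zeb2 was called between the KO groups only without HP1α KO replicate 3.

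**Figure D3:**
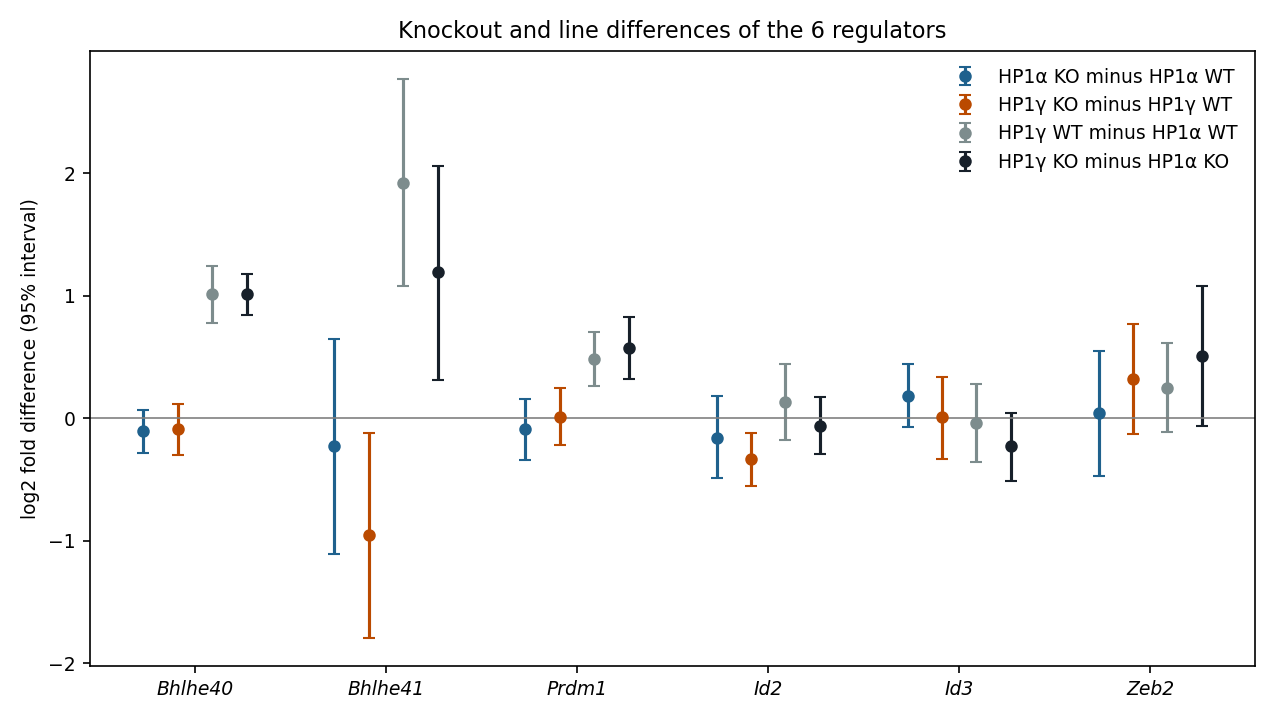
Log2 fold difference of each regulator in 4 comparisons, with points for the edgeR estimate and bars for its 95% interval. The intervals of Bhlhe40 span 0 for both knockouts and lie around 1.01 for both line differences.

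Genes that work with the 6 regulators were described in 4 lists. The E proteins and remaining Id genes, the partners that Id2 and Id3 act on or resemble, had 4 of 5 members tested (Id4 was not). In neither knockout was any of the 4 called by edgeR or DESeq2 or at an unadjusted p under 0.05. At that unadjusted threshold lay 4.27% of all genes in HP1α KO and 11.9% in HP1γ KO. Tcf12, an E protein, was higher in HP1γ WT than in HP1α WT (log2 difference 0.20, SE 0.0569, edgeR adjusted p = 0.0475) and did not pass between the KO groups (0.15, adjusted p = 0.0536). Between the KO groups the E protein genes Tcf4 (1.67, SE 0.325, adjusted p = 0.00488) and Tcf3 (−0.24, SE 0.0632, adjusted p = 0.0177) passed in opposite directions by edgeR. Of all genes tested, 12.8% passed between the WT groups and 32.8% between the KO groups. Tcf4, which is also a leading factor of plasmacytoid dendritic cells, ranged from 20.7 to 64.4 CPM in HP1γ KO and from 8.92 to 13.7 CPM in HP1α KO. Siglech, a marker of those cells, ranged from 25.2 to 110 CPM and from 10.4 to 18.6 CPM in the same groups, and its part in the Tcf4 difference was not tested. The median log2 difference of the 4 tested genes was 0.34 between the WT groups and 0.33 between the KO groups, against −0.02 and −0.01 over all genes tested.

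Of 20 transcription factors that act with or against the regulators, 0 were called in either knockout by edgeR (0.0% and 0.327% of all genes). At an unadjusted p under 0.05 there were 1 in HP1α KO and 4 in HP1γ KO, where 4.27% and 11.9% of all genes lay. Irf4, a factor induced by T cell receptor signalling that binds upstream of Prdm1, had the smallest p in HP1γ KO against HP1γ WT (log2 fold change 0.38, SE 0.101, edgeR adjusted p = 0.218). It was the 1 factor called there by DESeq2, and edgeR called it without HP1γ WT replicate 2. Lef1 had the smallest p in the HP1α line (0.17, SE 0.0515, edgeR adjusted p = 0.946).

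Between the WT groups 4 of these 20 factors were higher in the HP1γ line and 0 were lower, where 8.25% and 4.55% of all genes were. Irf4 rose from 152 ± 35.9 to 316 ± 51.8 CPM (mean ± SD, n = 4 each; log2 difference 1.06, SE 0.168, edgeR adjusted p = 0.00569). Nfil3, a bZIP repressor that also acts in the clock, rose from 105 ± 16.1 to 200 ± 55.1 CPM (0.93, edgeR adjusted p = 0.0104). Eomes, a T-box factor (0.68, edgeR adjusted p = 0.00960), and Stat3, which transmits IL-6 and IL-10 signals (0.33, edgeR adjusted p = 0.0404), were the others. Their median log2 difference was 0.20.

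Between the KO groups 8 of the 20 factors were higher in the HP1γ line, where 16.8% of all genes were, and 3 were lower, as were 2399 of 15020 genes tested. Their median log2 difference was 0.04. Nfil3 (0.84, SE 0.100, adjusted p = 0.000907) and Irf4 (1.25, SE 0.158, adjusted p = 0.00113) had the smallest p by edgeR. Bcl6, which Blimp-1 represses and which represses Prdm1 in turn, was at a mean of 66.4 CPM in HP1γ KO and 35.4 CPM in HP1α KO (n = 4 each; log2 difference 0.90, SE 0.168, edgeR adjusted p = 0.00402), so that Bcl6 and Prdm1 were both higher in the HP1γ KO samples. Stat3 passed here too (0.41, SE 0.0811, edgeR adjusted p = 0.00500). The 3 lower factors, named after their values were seen, were Klf2 (−0.52), Zfp683 (−0.50) and Satb1 (−0.33). Eomes did not pass between the KO groups (0.06).

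Of 20 reported targets of the regulators in T cells, 0 were called in either knockout by edgeR (0.0% and 0.327% of all genes) or DESeq2. At an unadjusted p under 0.05 there were 0 in HP1α KO and 3 in HP1γ KO, where 4.27% and 11.9% of all genes lay. In each line comparison 2 of 20 were called by edgeR, where 12.8% (WT groups) and 32.8% (KO groups) of all genes were. Both were higher in the HP1γ line each time, where 8.25% and 16.8% of all genes were. Il10, which Bhlhe40 is known to restrain and Blimp-1 to favour, was at 11.7 ± 3.16 CPM in HP1α WT and 28.1 ± 6.07 CPM in HP1γ WT (log2 difference 1.26, SE 0.198, edgeR adjusted p = 0.00527). It was at 9.97 ± 3.11 CPM in HP1α KO and 20.1 ± 6.10 CPM in HP1γ KO (1.01, SE 0.247, edgeR adjusted p = 0.0120), where the samples overlapped. S1pr1, the receptor for lymphocyte egress, was higher by 0.74 (SE 0.108, edgeR adjusted p = 0.00378) and 0.58 (SE 0.104, edgeR adjusted p = 0.00348) in the HP1γ line. Bhlhe40, Prdm1 and Il10 were thus all higher in HP1γ WT than in HP1α WT. Ccr7 (0.60, edgeR adjusted p = 0.0685) between the WT groups and Il7r (−0.31, edgeR adjusted p = 0.0604) between the KO groups did not pass. The medians of the 20 genes were 0.15 and 0.19.

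The list of clock genes, which holds repressors and output genes driven through E-boxes as well as the E-box activators Clock, Npas2 and Arntl, had the largest share of calls of the 4 lists in both line comparisons. In both knockouts 0 of 14 passed by edgeR (0.0% and 0.327% of all genes) and by DESeq2. At an unadjusted p under 0.05 there were 1 in HP1α KO and 2 in HP1γ KO, where 4.27% and 11.9% of all genes lay. Between the WT groups 7 of 14 were higher in the HP1γ line (8.25% of all genes), namely Cry2 (log2 difference 0.95, SE 0.0974, edgeR adjusted p = 0.00103), Nr1d2 (0.99, SE 0.136, edgeR adjusted p = 0.00338), Per2 (1.13, SE 0.179, edgeR adjusted p = 0.00553), Nr1d1, Npas2, Hlf and Per1. Between the KO groups 9 of 14 were called (32.8% of all genes), of which 7 were higher (16.8% of all genes) and 2 were lower, led by Cry2 (1.19, SE 0.126, edgeR adjusted p = 0.000582), Nr1d2 (1.30, SE 0.160, edgeR adjusted p = 0.00102) and Hlf (1.61, SE 0.265, edgeR adjusted p = 0.00261). The lower ones were Cry1 (−0.33) and Dbp (−0.37). The median log2 difference was 0.38 between the WT groups and 0.34 between the KO groups. CACGTG was found in the windows of 4 of 13 list genes with an entry (Ciart, Cry1, Per1 and Tef), 30.8%, against 6.86% of 27025 genes. The list was chosen for genes of the E-box clock, so nothing is read from this share. Of these genes, Per1 was called higher in both line comparisons and Cry1 lower between the KO groups. In the other lists CACGTG was found for 0 of 14 reported targets, 0 of 3 E protein and Id genes and 2 of 15 transcription factors with an entry.

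Over the 4 lists, 14 of 58 tested genes were called between the WT groups and 24 of 58 between the KO groups by edgeR. Of these, 11 genes were called in both and all in one direction, which is 78.6% of the calls between the WT groups and 45.8% of those between the KO groups. Over all genes, 1547 were called in both with one direction, against 1896 called between the WT groups and 4921 between the KO groups. Most calls between the WT groups thus recurred over all genes too. Of the 14568 genes tested in both, 10.6% were called in both with one direction. A share of 6.99% was higher in the HP1γ line in both, as the 11 genes were. These comparisons have no sample in common. The 11 genes were Cry2, Hlf, Il10, Irf4, Nfil3, Nr1d1, Nr1d2, Per1, Per2, S1pr1 and Stat3.

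**Figure D4:**
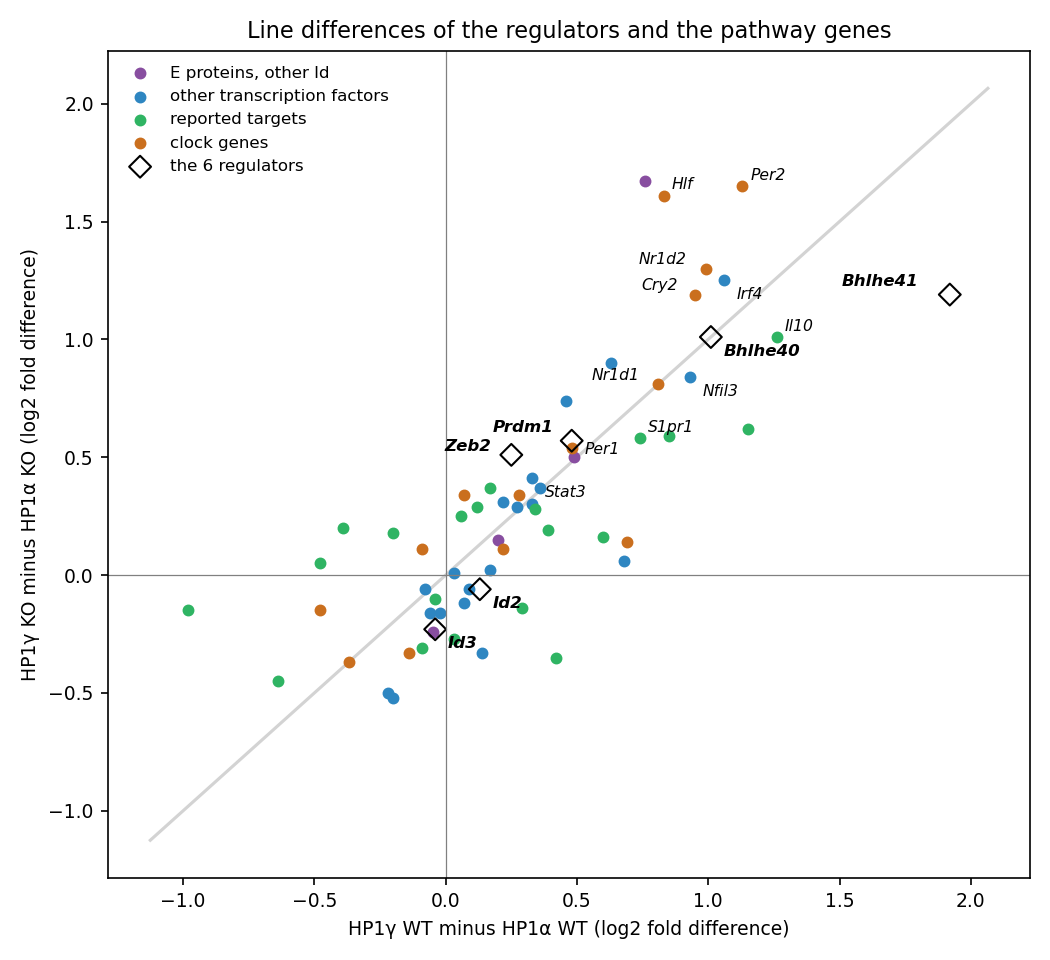
Log2 fold difference between the HP1γ and HP1α lines for the 58 tested genes of the 4 lists and the 6 regulators (open diamonds), in WT cells on the horizontal and in KO cells on the vertical axis; the grey diagonal marks equal differences. Named list genes passed in both comparisons, and Bhlhe40 sits on the diagonal at 1.01 and 1.01.

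Markers of cells outside the sort were read beside the regulators that those cells also express. Prdm1 and Xbp1 are expressed by plasma cells, and of 5 plasma cell markers Sdc1 and Xbp1 were called higher in the HP1γ line in both line comparisons by edgeR. Of all genes tested in both, 6.99% were called higher in that line in both. Sdc1 was at 2.09 ± 0.464 CPM in HP1α WT and 6.72 ± 2.06 CPM in HP1γ WT. Jchain, the marker that plasma cells express most strongly, was not called and was at 15.2 ± 9.76 CPM in HP1α WT and 9.04 ± 3.75 CPM in HP1γ WT, and Tnfrsf17 did not exceed 0.478 CPM in any sample. The summed level of the 5 markers ranged from 93.9 to 162 CPM in HP1α WT, from 144 to 186 CPM in HP1γ WT, from 106.7 to 179 CPM in HP1α KO and from 168 to 208 CPM in HP1γ KO, most of it Xbp1. The groups overlapped in both line comparisons (two-sided exact permutation test, p = 0.0857 in each; 4 against 4 samples cannot go below 0.0286). The part of plasma cells in the Prdm1 difference was not tested.

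The summed level of a list of handling genes separated the KO groups but not the WT groups. Summed over 6 immediate early and heat shock genes, HP1γ KO samples lay between 1611 and 2024 CPM and HP1α KO samples between 2033 and 2724 CPM (p = 0.0286 in the exact permutation test, not adjusted and the lowest that the design allows). HP1γ WT (1731 to 2566 CPM) and HP1α WT (2082 to 2402 CPM) overlapped (exact p = 0.343). The genes of the sum did not move alike. Jun (−0.51, edgeR adjusted p = 0.00861) and Fos (−0.46, edgeR adjusted p = 0.0195) were lower in HP1γ KO than in HP1α KO, whereas Dusp1 was at 742 against 714.5 CPM there. Between the WT groups 2 of the 6 genes were called lower in the HP1γ line and 0 higher, where 4.55% and 8.25% of all genes were. Hspa1b ranged from 24.7 to 210.5 CPM in HP1α WT and from 7.08 to 21.1 CPM in HP1γ WT. Hspa1a had means of 25.1 and 5.20 CPM in these groups. In the other direction, Egr1 was at 404 CPM in HP1γ WT and 345.5 CPM in HP1α WT, and Dusp1 at 809 and 717 CPM. Neither Egr1 nor Dusp1 passed in a line comparison. The part of handling in the Bhlhe40 difference was not tested.

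After the group mean was subtracted from log2 CPM (16 samples within their groups), Bhlhe40 and Bhlhe41 had the strongest relation of the 15 pairs (Pearson's r = 0.74, permutation p = 0.00482, adjusted 0.0723; Spearman's rho = 0.73, permutation p = 0.00534, adjusted 0.0801). It was 0.74 without the 2 samples farthest from the median of Bhlhe40, but 0.31 on log2(TPM + 1), the scale on which the length of Bhlhe41 was unstable. Prdm1 and Zeb2 came next (r = 0.60, permutation p = 0.0420, adjusted 0.315; rho = 0.64, permutation p = 0.0251, adjusted 0.188; r = 0.50 without the 2 farthest samples). No pair passed the adjustment. Id2 and Id3 had r = −0.12 (permutation p = 0.677, adjusted 0.861) and rho = −0.08 (permutation p = 0.805, adjusted 0.805).

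The same deviations were set against the summed markers of 10 lists, 60 relations in all, a step chosen after the values were seen. Bhlhe41 varied with the plasma cell list (r = 0.79, permutation p = 0.00100, adjusted 0.0600; rho = 0.81, permutation p = 0.000730, adjusted 0.0438; r = 0.72 without the 2 farthest samples). Bhlhe41 and the B cell list had r = 0.74 (permutation p = 0.0129, adjusted 0.283) and rho = 0.73 (permutation p = 0.0120, adjusted 0.240). Bhlhe40 and the plasma cell list had r = 0.63 (permutation p = 0.0142, adjusted 0.283; 0.45 without the 2 farthest samples) and rho = 0.68 (permutation p = 0.0102, adjusted 0.240). Xbp1 made up most of the plasma cell sum, with group means from 104 to 165.5 CPM against 9.04 to 22.6 CPM for Jchain. A relation to Xbp1 alone was not computed, and the part of B lineage cells in the Bhlhe41 and Bhlhe40 values was not tested.

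Over the 16 samples, group differences included, the genes whose log2 CPM were most like those of Bhlhe40 among 9745 genes with a mean of at least 5 CPM were Trim16, the unnamed ENSMUSG00000120070, Spty2d1, St6galnac2 and Egln3, with r from 0.972 (Egln3) to 0.979 (Trim16). These r describe samples that fall into 2 lines, and each sample gives both values. Within groups they were 0.70, 0.78, 0.83, 0.39 and 0.77. Trim16 (1.39 and 1.59 CPM in HP1α KO and WT, 31.4 and 27.3 CPM in HP1γ KO and WT) and St6galnac2 (2.42 and 2.67 CPM against 77.0 and 87.8 CPM) differed far more between the lines than Bhlhe40 did. Spty2d1 (316 and 337 CPM against 507 and 522 CPM) and Egln3 (29.6 and 32.5 CPM against 53.8 and 51.3 CPM) differed less.

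The other regulators had neighbours of likeness of their own. These were Ets2 (r = 0.954) and Strap (0.953) for Bhlhe41, Tmx4 (0.928) and Rpf1 (0.911) for Prdm1, Denr (0.919) and Hnrnpu (0.880) for Id2, Rps19bp1 (0.795) and Rad52 (0.756) for Id3, and Btbd8 (0.820) and Yipf6 (0.782) for Zeb2.

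Genes near the regulators on the chromosome were compared to see whether a difference stopped at the gene. Within 1 Mb of Bhlhe40, 8 genes were tested. Arl8b, a lysosomal small GTPase whose start lies 123367 bases beyond that of Bhlhe40, was higher in the HP1γ line by 0.94 (SE 0.127, edgeR adjusted p = 0.00309) in WT and 1.02 (SE 0.0968, edgeR adjusted p = 0.000421) in KO cells on the log2 scale. Gm17055, a predicted gene starting 2768 bases before Bhlhe40, was higher by 0.60 (SE 0.118, edgeR adjusted p = 0.0127) and 0.96 (SE 0.134, edgeR adjusted p = 0.00149). Edem1, 168831 bases beyond, passed between the KO groups only (0.27, SE 0.0758, edgeR adjusted p = 0.0224), as did Rpl36-ps12, which was lower (−0.49, SE 0.140, edgeR adjusted p = 0.0221). Bhlhe40, Gm17055 and Arl8b were thus higher together in the HP1γ line. In HP1γ KO against HP1γ WT, Gm17055 was at 12.01 ± 1.55 CPM against 8.37 ± 0.599 CPM (n = 4 each) and did not pass (log2 fold change 0.53, SE 0.117, edgeR adjusted p = 0.135).

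Crybg1, 379643 bases from Prdm1, was higher in the HP1γ line in both comparisons (0.39 and 0.44, edgeR adjusted p = 0.0383 and 0.0232), as was Stk38l, 814998 bases from Bhlhe41 (0.51 and 0.80, edgeR adjusted p = 0.0384 and 0.00310). Near Id3, whose levels overlapped between the lines, Clic4 (0.62 and 0.83, edgeR adjusted p = 0.0173 and 0.00236) and Pnrc2 (0.32 and 0.27, edgeR adjusted p = 0.0391 and 0.00506) were also higher in both. In the HP1γ knockout 1 gene was called, 9030624G23Rik, 999950 bases from Id2, with a log2 fold change of 2.72 (SE 0.370, edgeR adjusted p = 0.0107). Over all 6 windows, 11 of 69 tested genes were called between the WT groups (12.8% of all genes) and 23 of 73 between the KO groups (32.8% of all genes). Chromosome 6 had a lower share of calls than most autosomes, with 83 of 763 genes (10.9%) between the WT groups and 217 of 775 (28.0%) between the KO groups, rank 18 among the autosomes in each.

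**Figure D5:**
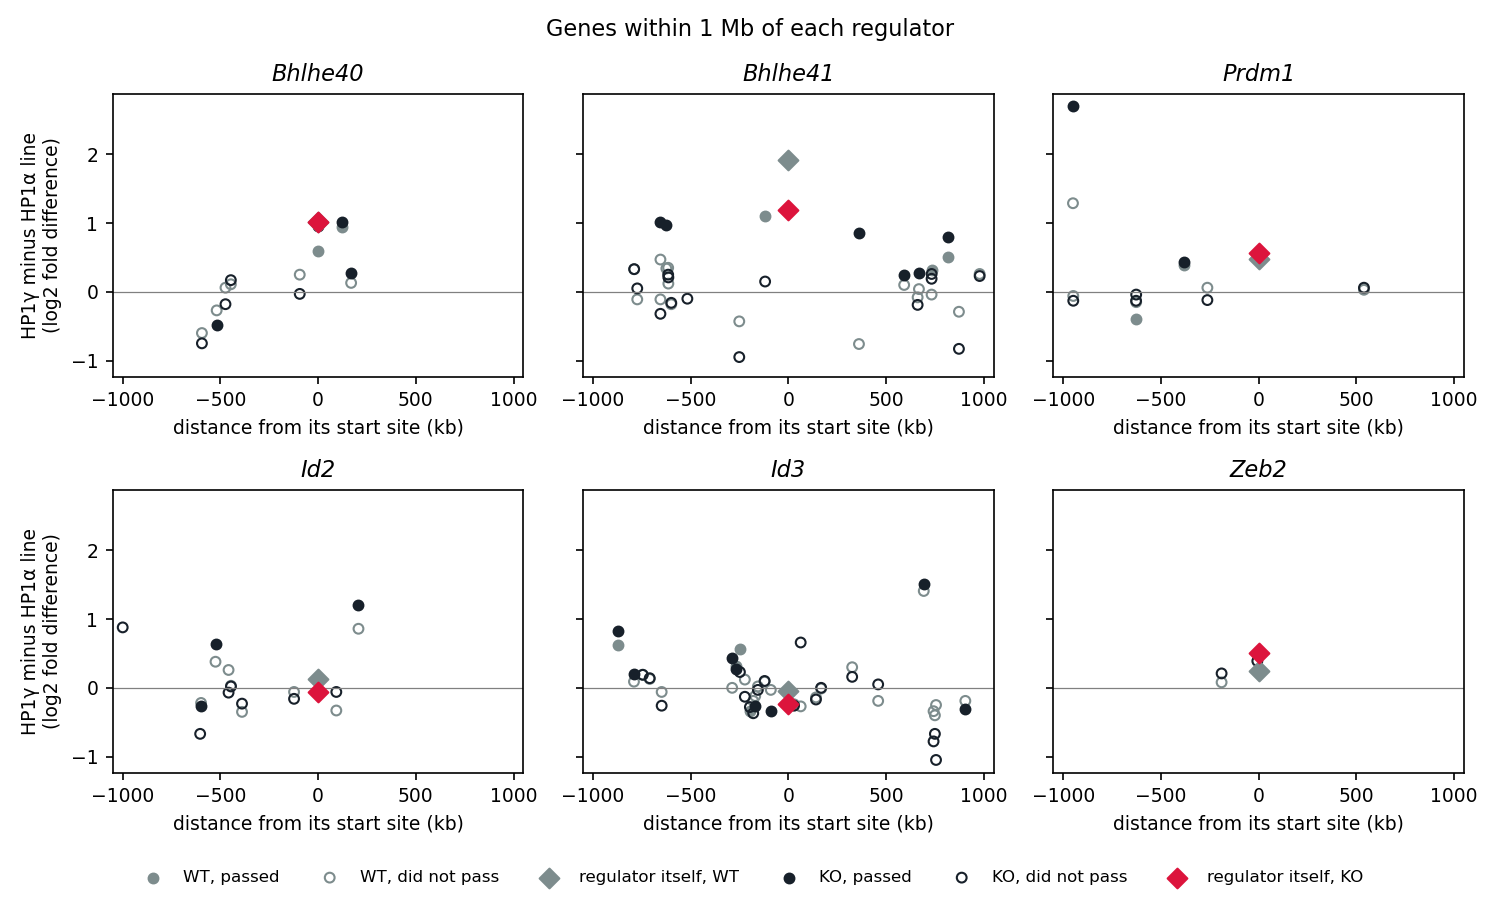
Log2 fold difference between the HP1γ and HP1α lines of the genes tested within 1 Mb of each regulator, against the distance between start sites in kb (higher coordinates to the right); filled points passed the edgeR test, open points did not, and diamonds are the regulator itself. Around Bhlhe40, Gm17055 and Arl8b lie at 0.60 to 1.02, while the other tested genes lie between −0.75 and 0.27.

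Annotated genes overlapping the regulators did not exceed 1.18 CPM where they had counts, and some had none. Their part in the counts of the regulators was not tested. The antisense gene 0610040F04Rik at Bhlhe40 did not exceed 0.243 CPM, and Zeb2os at Zeb2 ranged from 0.0758 to 1.18 CPM. The library kit keeps the strand.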

How the data were processed

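RNA-Seq of sorted splenic memory CD4+ T cells was analysed in 16 samples, grouped by the submitters' titles. Part of the labels describes a cell transfer that does not match the study's account of these cells, and it was not used. Per the study's methods, the authors ran nf-core/rnaseq 3.9 with Trim Galore 0.6.7, Cutadapt 3.4, STAR 2.7.10a and Salmon 1.5.2 on GRCm39 (Ensembl annotation 107). The authors deposited estimated counts, of which 11.6% were not whole, and TPM, which keep no depth. Estimated counts were rounded and tested with edgeR 4.0.16 in R 4.3.3 (TMM, filterByExpr, glmQLFit, glmQLFTest, Benjamini-Hochberg), in fits of the 8 samples compared and of 16 for the difference of the knockout effects. A gene was called at an adjusted p under 0.05. CPM use TMM over all samples. Alternatives were DESeq2 1.42.0, RLE size factors, no filter, all 16 samples in one fit, a replicate block, limma 3.58.1 on log2(TPM + 1) and log2(TPM + 0.1), an added fold threshold and the omission of each sample. Permutation tests used 100000 draws, or all splits for 4 against 4 samples. Intervals are 95% and use the degrees of freedom of edgeR.

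The members and lists were chosen with earlier results of these data known. Named list genes are those called (at most 10 per comparison by p) and the 3 with the smallest p per list; others are said to be named after their values were seen. Positions are those of GENCODE on GRCm39, which matched 56017 of 56748 genes; promoter windows are RefSeq's. On simulated counts for HP1α KO against WT (14970 genes), edgeR recovered 88% of genes changed 2-fold and 95% of those changed 4-fold, and 3.68% of its calls were unchanged genes. The simulation gave every gene the same dispersion, a value not estimated from these data, so these rates need not hold for the real samples. Replicates differed by more than sampling noise.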

Additional observations from a re-analysis of the deposited data

Results flagged for a closer look

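Of 32 groups of 4 samples examined (the 6 regulators, Cbx5 and Cbx3 in each group), 1 held a sample far from the other 3. In HP1γ KO, Id2 was at 198 CPM in replicate 2 and at 210 to 212 CPM in the other replicates, and the gap to the nearest sample was 0.863 of the whole range, above Dixon's 95% critical value for 4 samples. Chance flags about 1 group in 20, and the whole range of this group was narrow (SD 6.49 CPM).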

How the results depend on the processing

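The log2 differences of the 6 regulators were recomputed under 492 combinations of result and alternative, of which 488 moved by less than 1 SD between replicates, 4 moved by more and 0 of those called changed sign; the 4 all concerned Bhlhe41. Bhlhe40 stayed between 0.96 and 1.09 (WT groups) and between 0.97 and 1.06 (KO groups) and was called under all 15 alternatives in each. Bhlhe41 between the KO groups was called under 7 of 15 alternatives, and Prdm1 between the WT groups under 12 of 15. On log2(TPM + 1), Bhlhe41 differed by 0.84 and 0.51 in place of 1.92 and 1.19, since the added 1 exceeds most of its values. The cause of the other shifts was not tested. Bhlhe41 rested on 15 to 182 reads per sample and Zeb2 on 222 to 719. The part of depth in their spread was not tested.

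Counts of all genes called changed by more than 1.5 times as follows. In HP1α KO against WT (0 by edgeR, 635 at an unadjusted p under 0.05) the count was 8 by DESeq2, 1 without a filter, 1 by limma with either pseudocount (1 or 0.1, added to TPM), and 0 to 3 without a sample (3 without HP1α WT replicate 3, 1 without replicate 4). In HP1γ KO against WT (49) it was 265 by DESeq2, 96 with all 16 samples in one fit, 28 and 32 by limma, and 30 to 49 without a sample (30 and 32 without HP1γ KO replicates 1 and 2). Between the WT groups (1896) it was 577 with the replicate block, 1175 and 1210 by limma, 282 with the fold threshold, and 573 to 2185 without a sample (573, 1101 and 1040 without HP1α WT replicates 1, 2 and 4, 613 and 626 without HP1γ WT replicates 1 and 2). Between the KO groups (4921) it was 651 with the fold threshold. For the difference of the knockout effects (8) it was 78 by DESeq2, 14 without a filter, 13 with the replicate block, 4 by limma with a pseudocount of 0.1 and 5 with the fold threshold.

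Counts over the 58 list genes changed in this way for HP1γ KO against WT, with 1 by DESeq2 and 0 to 1 without a sample (Irf4, without HP1γ WT replicate 2) in place of 0. Between the WT groups they were 9 with the replicate block, 3 with the fold threshold and 9 to 15 without a sample (9 without HP1γ WT replicate 2) in place of 14, and between the KO groups 7 with the fold threshold in place of 24. Within 500 kb in place of 1 Mb of the regulators, 0, 7 and 10 genes were called in HP1γ KO, between the WT groups and between the KO groups in place of 1, 11 and 23, since fewer genes were tested.

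Same-numbered KO and WT samples had correlated deviations of 0.0847 to 0.355 in the HP1α line and 0.0497 to 0.170 in the HP1γ line, not all above 0.1, and the numbers were not taken as pairs. With the replicate block Bhlhe41 lost its call between the KO groups, and no other call of the 6 regulators changed.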
